A study of Homo sapiens with 15 samples.

Results

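The hexosamine pathway was followed here through the transcripts of 10 enzymes in MCF10A cells given less glutamine. The 10 genes were taken by symbol from a table of 62754 genes: GFPT1 and GFPT2, GNPNAT1, PGM3 and UAP1, which make the pathway's end product, OGT and OGA, which put it on proteins and take it off, and NAGK, GNPDA1 and GNPDA2, which salvage or break down its intermediates. All 10 were found, and all 10 were among the 13828 genes that passed the filter on low counts.

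The pathway is a branch of glucose metabolism that also consumes glutamine. GFPT1 and GFPT2 are paralogous enzymes that transfer the amide nitrogen of glutamine to fructose 6-phosphate, the committed and rate-limiting step. After acetylation by GNPNAT1, isomerisation by PGM3 and coupling to UTP by UAP1, the product is UDP-N-acetylglucosamine (UDP-GlcNAc), the sugar donor for N-glycans, hyaluronan, heparan sulfate and the O-GlcNAc mark. OGT attaches O-GlcNAc to serine and threonine of nuclear and cytoplasmic proteins, and OGA removes it. NAGK phosphorylates salvaged N-acetylglucosamine, and GNPDA1 and GNPDA2 turn glucosamine 6-phosphate back into fructose 6-phosphate with release of ammonia.

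MCF10A is an established, non-tumorigenic line of human breast epithelium, labelled wild type. Cells grew in DMEM/F12 with mammary epithelial growth supplements and cholera toxin, at the medium's normal 2.5 mM glutamine (full medium, labelled as untreated) or in glutamine-free medium brought to 0.28, 0.20, 0.12 or 0.04 mM. Each of the 5 groups had 3 biological replicates, numbered 1 to 3, which gave 15 libraries of ribosome-depleted total RNA with ERCC spike-ins. No group had the glutamine-free medium brought back to 2.5 mM, so every comparison with full medium is also one between different base media. Neither the duration of limitation nor the meaning of the replicate numbers was given in the labels, and all samples come from 1 line.

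Libraries held 3704170 to 13361406 gene counts, and the 10 genes had from 56 counts (NAGK) to 2883 counts (UAP1) in a library. Libraries of the same replicate number deviated together in all 5 groups, so each change is given from 2 fits of edgeR's quasi-likelihood test: the main one without the replicate number and a companion with that number as a block. Changes are log2 fold changes against full medium with 1 standard error (SE), adjusted p-values cover all 13828 genes, and "rose" and "fell" are used where adjusted p was under 0.05 in the fit named. Replicate 3 at 0.04 mM and at 0.12 mM stood apart, with 2.97% and 1.62% of gene counts in mitochondrial ribosomal RNA against at most 0.402% in the other 13 libraries. The line's identity was checked on CDKN2A, which MCF10A is known to lack and which had 0 counts in all 15 libraries. Of 7 basal and pan-epithelial markers, KRT5 was at 5850 to 7770 CPM (counts scaled to library size). KRT14 (2070 to 4960), KRT17 (2220 to 3430) and ITGB4 (1540 to 2460) were also abundant. TP63 (80.2 to 122) and CDH1 (70.9 to 102) were lower, and EPCAM was at only 2.95 to 11.8 CPM. Of 7 luminal markers KRT18 (343 to 430 CPM), KRT8 (87.1 to 161), GATA3 (12.9 to 23.8) and FOXA1 (1.4 to 4.29) were detected. ESR1, PGR and KRT19 stayed at or under 0.539 CPM.

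The sequences of the paired entry enzymes are shown first, because the results turn on the difference between them. The first 60 coding bases of the longest coding transcript of each gene (GENCODE 29, GRCh38) are given 5′ to 3′, with the codon after the start codon in capitals. That codon encodes the cysteine that attacks glutamine in this enzyme family.
GFPT1: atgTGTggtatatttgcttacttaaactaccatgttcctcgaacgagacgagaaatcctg
GFPT2: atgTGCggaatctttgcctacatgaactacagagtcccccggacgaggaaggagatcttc
Both open with the start codon and a cysteine codon, and 41 of these 60 bases are identical. Over 2049 aligned coding bases the genes were 71.9% identical, and the longest run of identical bases was 18. Of all 50-base stretches in the transcripts of GFPT2, 0% occur in another gene, and 0.292% of those of GFPT1 do, in genes other than GFPT2.

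GFPT2 (ENSG00000131459) lies on the minus strand of chromosome 5 from 180300698 to 180353336, and GFPT1 (ENSG00000198380) on the minus strand of chromosome 2 from 69319780 to 69387227 (GRCh38.p14). Their promoters differ as well. The 250 bases before each annotated start, from RefSeq on GRCh38.p14 and written 5′ to 3′ on the gene's own strand, are printed with every CCAAT box (CCAAT) and GC box (GGGCGG) on either strand in capitals.
GFPT2 chr5:180353337-180353586 (minus strand): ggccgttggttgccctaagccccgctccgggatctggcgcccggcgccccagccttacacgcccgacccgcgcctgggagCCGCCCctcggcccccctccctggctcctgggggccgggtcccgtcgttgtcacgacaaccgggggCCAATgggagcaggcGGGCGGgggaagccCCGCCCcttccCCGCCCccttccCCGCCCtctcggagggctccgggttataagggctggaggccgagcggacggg
GFPT1 chr2:69387228-69387477 (minus strand): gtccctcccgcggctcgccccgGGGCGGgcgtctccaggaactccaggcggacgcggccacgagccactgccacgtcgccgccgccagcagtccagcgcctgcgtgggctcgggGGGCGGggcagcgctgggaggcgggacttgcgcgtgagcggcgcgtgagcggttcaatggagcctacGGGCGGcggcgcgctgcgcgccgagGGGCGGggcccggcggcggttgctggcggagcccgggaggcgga
The GFPT2 window held 5 GC boxes and 1 CCAAT box, and the GFPT1 window 4 GC boxes and no CCAAT box. GC boxes occurred in 42.6% and CCAAT boxes in 32.0% of 35116 promoter windows of this length. GFPT2 also held the letters TATAA on its own strand, as did 13.6% of windows, and GFPT1 did not. The core of the amino acid response element, through which ATF4 acts (TGATGNAA, either strand), was in 3.14% of all windows and in none of the 14 windows of the 10 genes. The core of an unfolded protein response element (TGACGTGG) was in 0.612% of windows and again in none of the 14. These are matches of letters in a short window and say nothing of binding.

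GFPT2 was low and uniform in full medium and higher in every library with less glutamine. In full medium it stood at 15, 14.2 and 14.7 CPM in replicates 1, 2 and 3. At 0.28 mM it stood at 25.2, 26.9 and 40.7 CPM, and at 0.20 mM at 26.4, 28.0 and 39.4 CPM. The 2 mildest limitations thus gave nearly the same values, replicate by replicate. At 0.12 mM it stood at 26.7, 41.8 and 45.4 CPM, and at 0.04 mM at 28.7, 44.9 and 47.3 CPM. All 12 limited libraries lay above all 3 of full medium, and the 4 limited groups overlapped each other.

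The step from full medium to the mildest limitation was larger than any further change down to 0.04 mM. At 0.04 mM GFPT2 rose by 1.44 on the log2 scale without the block (SE 0.244, adjusted p = 0.0401, n = 3 against 3 in edgeR) and by 1.41 with it (SE 0.139, adjusted p = 1.41e-07), 2.66-fold in the latter. At the other concentrations, of the 2 edgeR fits, it rose only in that with the block. The change there was 1.32 at 0.12 mM (SE 0.136, adjusted p = 8.06e-07), 1.06 at 0.20 mM (SE 0.137, 8.21e-06) and 1.04 at 0.28 mM (SE 0.137, 1.96e-04). Without the block these were 1.36 (adjusted p = 0.0781), 1.09 (0.198) and 1.07 (adjusted p = 1), so none passed. By p-value in the blocked fit GFPT2 ranked 2 at 0.04 mM, 1 at 0.12 mM, 14 at 0.20 mM and 1 at 0.28 mM among 13828 genes, and by size of increase, in the same order, 54, 59, 99 and 87. The 4 comparisons share their 3 control libraries. They also all set glutamine-free medium with glutamine added against the normal medium. No group had the glutamine-free medium brought to the full concentration. The part of the change of base medium in the step from full medium was therefore not tested. In these bulk libraries, a change in the mix of cells and a change in RNA per cell cannot be told apart.

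DESeq2 without the block also called GFPT2 at 0.04 mM (1.46, adjusted p = 1.93e-05). It called GFPT2 at 0.12 mM (1.37, 1.54e-04) and 0.20 mM (1.10, 0.0105) too, but not at 0.28 mM (1.08, 0.0923). The edgeR call without the block was narrow. At 0.04 mM it was lost on leaving out replicate 2 or 3 of 0.04 mM, replicate 3 of 0.12 mM, replicate 2 of 0.20 or 0.28 mM, or replicate 2 or 3 of full medium (changes of 1.32 to 1.44, adjusted p = 0.0543 to 0.293). With the block GFPT2 passed at all 4 concentrations whichever library was left out, although at 0.28 mM it did not with replicates 1 and 2 only (0.84, adjusted p = 0.0623). The 2 libraries rich in mitochondrial ribosomal RNA were also those with the highest GFPT2. Without them GFPT2 changed by 1.42 at 0.04 mM and 1.33 at 0.12 mM with the block (adjusted p = 1.24e-06 and 1.8e-05), and by 1.32 at 0.04 mM without it (adjusted p = 0.19).

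The size of the GFPT2 change differed between the replicate numbers. Against the full-medium library of its own number, it was 1.68 to 1.92-fold higher in replicate 1 over the 4 concentrations, 1.89 to 3.15-fold in replicate 2 and 2.67 to 3.21-fold in replicate 3. Replicate 1 hardly varied between 0.28 and 0.04 mM (25.2 to 28.7 CPM), and replicate 2 stepped from 28.0 to 41.8 CPM between 0.20 and 0.12 mM. Each concentration and number has 1 library, so this difference between numbers has no test. In full medium the spread was 2.55% of the mean (coefficient of variation over 3 replicates), and in the limited groups 22.6 to 27.5%. The full-medium libraries held only 162, 132 and 114 counts of GFPT2, so so small a spread is uncertain, and the difference in spread was not tested.

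Within the limited range no gradation of GFPT2 passed the test. From 0.28 to 0.04 mM it differed by 0.37 with the block (SE 0.127, adjusted p = 0.353, higher at 0.04 mM in 3 of 3 pairs). The slope over the 12 limited libraries was -0.14 per doubling of glutamine (SE 0.0389, adjusted p = 0.275), against a background in which 0% of genes passed for the slope. With all 15 libraries, which adds the step from full medium and its change of base medium, the slope was -0.24 (adjusted p = 1.56e-07). For the comparisons of 0.04 with 0.12, 0.12 with 0.20, 0.20 with 0.28 and 0.04 with 0.28 mM, 0 of the 10 genes passed in either fit of edgeR or in DESeq2. Over those 4 comparisons 0.00723%, 0.0145%, 0.701% and 0.0434% of all genes passed with the block, and 0% without it. At an unadjusted p under 0.05 with the block, 0 of the 10 genes passed in the first of these and 2 in each of the other three. For 0.04 against 0.28 mM, DESeq2 with the block gave no adjusted p for 4 of the 10.

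**Figure D1:**
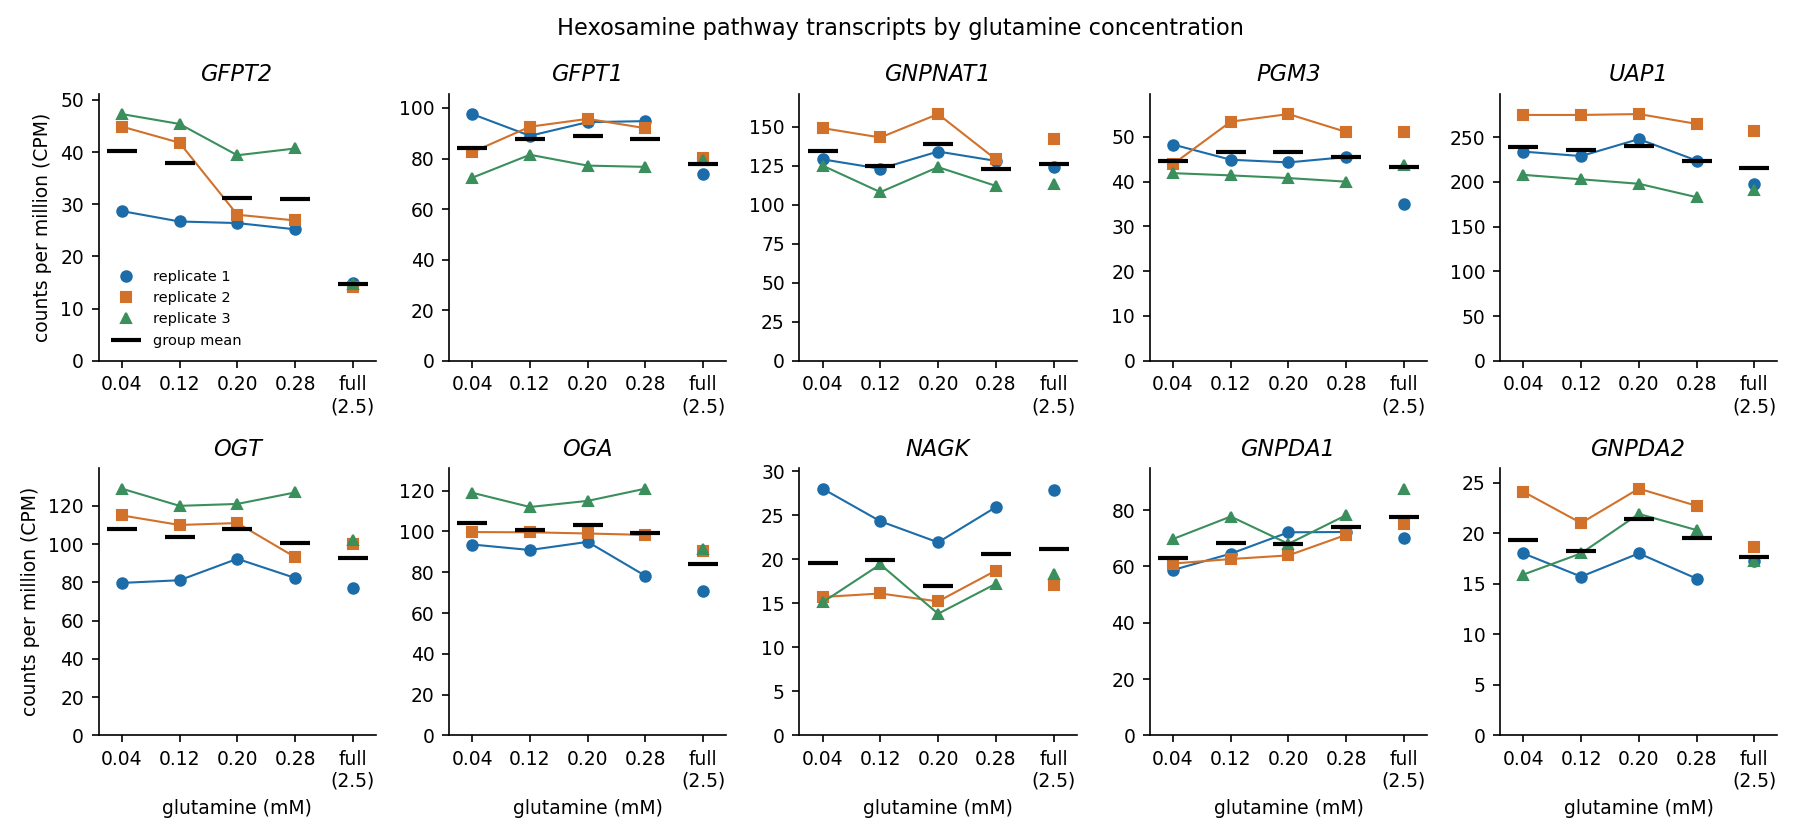
Library-scaled counts (CPM) of the 10 transcripts (vertical axes, each from 0) by glutamine concentration in mM (horizontal axis), 1 point per library, coloured by replicate number, with limited libraries of the same number joined and black bars for group means. GFPT2 lies at 14.2 to 15 CPM in full medium and at 25.2 to 47.3 CPM in the 12 limited libraries, while the groups of the other 9 transcripts mostly overlap.

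GFPT1, the widely expressed paralog, passed the test at no concentration. It stood at 74.0, 80.1 and 79.6 CPM in full medium, 94.8, 92.0 and 76.7 at 0.28 mM, and 94.4, 95.7 and 77.2 at 0.20 mM. At 0.12 mM it stood at 89.0, 92.6 and 81.5 CPM, and at 0.04 mM at 97.6, 82.5 and 72.4. Replicates 1 and 2 were above their full-medium partners in all 8 limited libraries and replicate 3 in 1 of 4. Its changes ran from 0.12 to 0.19 with the block, and none passed (adjusted p = 0.371 at 0.04 mM, 0.221 at 0.12 mM, 0.11 at 0.20 mM and 0.294 at 0.28 mM). The change turned negative at 0.12 mM (-0.02) when scaled to the spike-ins, and at 0.04 and 0.20 mM with an offset for GC content and length. Only at 0.12 mM did the groups not overlap. At 0.20 mM with the block GFPT1 passed without replicate 3 of full medium (0.29, adjusted p = 0.0208). It also passed there with replicates 1 and 2 only (0.31, adjusted p = 0.0372).

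The balance between the entry enzymes shifted accordingly. Per kilobase of exon, GFPT2 made up 24.8 to 27.3% of the summed GFPT1 and GFPT2 level in full medium. Its share was 33.0 to 49.6% at 0.28 mM, 34.1 to 48.6% at 0.20 mM, 35.7 to 50.8% at 0.12 mM and 35.3 to 54.8% at 0.04 mM, so the limited groups did not overlap full medium. With the longest coding transcript as length, GFPT2 and GFPT1 averaged 4.73 and 8.95 CPM per kilobase in full medium. At 0.04 mM they averaged 13.0 and 9.67, against 8.43 and 9.49 by exon length. The shares, and which gene was higher, thus depend on the length used, while group differences in the log2 ratio do not. The log2 ratio of GFPT2 to GFPT1 averaged -1.52 in full medium (SD 0.0946, n = 3) and -0.46 over the limited libraries (SD 0.489, n = 12). The difference of 1.06 gave p = 0.0022 in a two-sided exact permutation test over 455 relabellings (0.0044 adjusted over 2 ratios), the smallest value it can give. Within replicates 1, 2 and 3 it was 0.49, 1.10 and 1.60, with p = 0.008 in an exact permutation test within numbers over 125 relabellings (0.016 adjusted), again the smallest possible. GFPT2 was known to differ when the ratio was chosen, so the ratio adds that GFPT1 did not change in proportion and is no separate evidence for GFPT2.

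**Figure D2:**
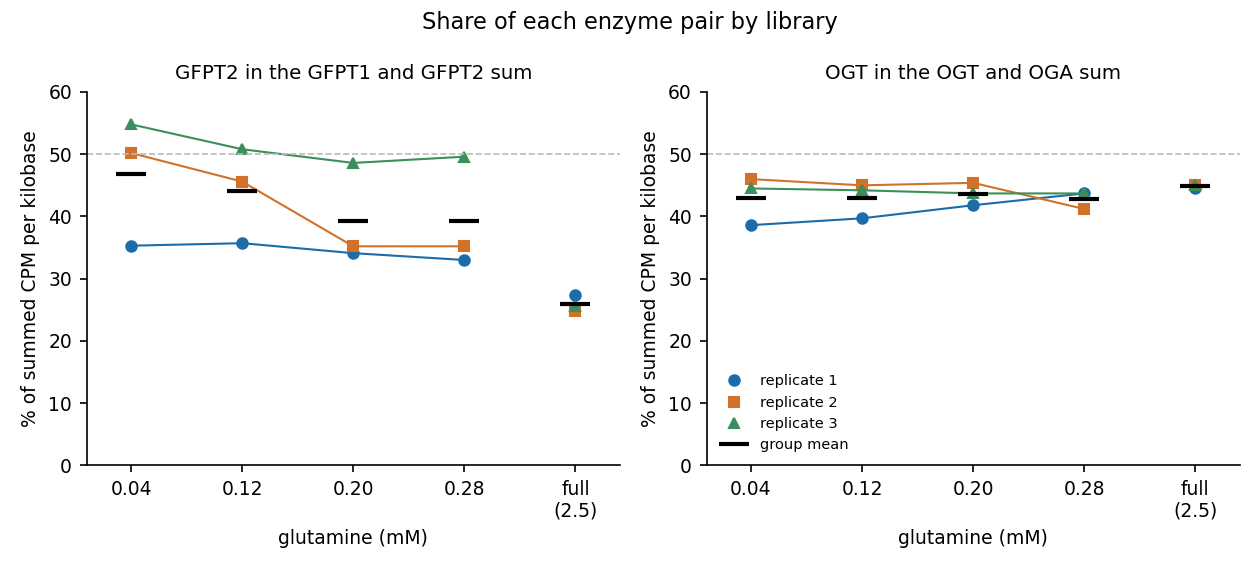
Share of GFPT2 in the summed GFPT1 and GFPT2 level (left) and of OGT in the summed OGT and OGA level (right), in % of CPM per kilobase of exon, by glutamine in mM, 1 point per library and black bars for group means, with a dashed line at 50%. GFPT2 lies at 24.8 to 27.3% in full medium and reaches 54.8% at 0.04 mM, while OGT keeps between 38.6 and 46.0% throughout. The shares depend on the length by which each gene is scaled.

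The 3 enzymes between glucosamine 6-phosphate and UDP-GlcNAc changed little. GNPNAT1 (chromosome 14) ranged from 108 to 158 CPM over all libraries, PGM3 (chromosome 6) from 35.1 to 55.1 and UAP1 (chromosome 1) from 183 to 276. GNPNAT1 and UAP1 were highest in replicate 2 and lowest in replicate 3 in all 5 groups: UAP1 was at 257 to 276 CPM in replicate 2 of every group and at 183 to 208 in replicate 3. With the block their changes were between -0.03 and 0.16, and none passed at any concentration. The closest was UAP1 at 0.20 mM (0.16, SE 0.0626, adjusted p = 0.0784, higher in 3 of 3 pairs), which passed without replicate 3 of full medium (0.20, adjusted p = 0.0454). UAP1 was above its full-medium partner in 11 of 12 limited libraries, by 1.25-fold at most, although scaled to the spike-ins its change was -0.06 at 0.12 mM and -0.08 at 0.28 mM. For GNPNAT1 and PGM3, 35.6% and 14.8% of exonic bases overlap genes on the opposite strand, and since the strand rule of the counting is not given, their counts may hold reads of those genes.

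OGA and OGT, which handle the O-GlcNAc mark, both had positive changes with less glutamine, which for OGT turned slightly negative at 0.12 and 0.28 mM (-0.03 and -0.01) when scaled to the spike-ins. OGA (chromosome 10, 101784450 to 101818444) stood at 70.9, 90.2 and 91.3 CPM in full medium and at 78.2, 98.3 and 121 at 0.28 mM. It stood at 94.9, 99.0 and 115 CPM at 0.20 mM, 90.9, 99.6 and 112 at 0.12 mM, and 93.6, 99.7 and 119 at 0.04 mM. All 12 limited libraries were above the full-medium library of their own number. With the block OGA rose by 0.31 at 0.04 mM (SE 0.0774, adjusted p = 0.00699), 0.27 at 0.12 mM (SE 0.0761, 0.025) and 0.30 at 0.20 mM (SE 0.0752, 0.00751), and had a change of 0.22 at 0.28 mM (SE 0.0755, adjusted p = 0.116). Without the block it passed nowhere (adjusted p = 0.465 at 0.04 mM). The calls also depended on single libraries: that at 0.04 mM was lost without replicate 1 of 0.04 mM (adjusted p = 0.0509), that at 0.20 mM without replicate 1 of 0.20 mM (0.0803), and that at 0.12 mM without replicate 1 or 2 of 0.12 mM or replicate 1 or 3 of full medium (0.0642 to 0.123).

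OGT (X chromosome, 71533104 to 71575892) stood at 76.9, 100 and 102 CPM in full medium, 82.3, 93.2 and 127 at 0.28 mM, and 92.3, 111 and 121 at 0.20 mM. At 0.12 mM it stood at 81.1, 110 and 120 CPM and at 0.04 mM at 79.7, 115 and 129. It was above its partner in 11 of 12 limited libraries, and every group overlapped full medium. With the block it passed at 0.20 mM alone (0.22, SE 0.0766, adjusted p = 0.0486), a call that DESeq2 did not make (adjusted p = 0.053) and that leaving out any of 10 of the 15 libraries ended (0.0514 to 0.26). These were replicate 2 of 0.04 mM, replicates 1 and 3 of 0.12 mM, replicate 1 of 0.28 mM and all 3 of 0.20 mM and of full medium. At the other concentrations OGT changed by 0.11 to 0.19 (adjusted p = 0.0998 to 0.518). OGT made up 44.5 to 45.1% of the OGT and OGA sum per kilobase in full medium and 38.6 to 46.0% in limited libraries. The log2 ratio differed by -0.10 (p = 0.222 in the same exact permutation test, 0.128 within numbers), with -0.21, -0.04 and -0.06 in replicates 1, 2 and 3.

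GNPDA1, which runs the pathway's amination step in reverse, was the 1 enzyme of the 10 that fell. GNPDA1 (chromosome 5, 142000671 to 142013027) stood at 69.9, 75.1 and 87.6 CPM in full medium and at 58.7, 61.0 and 69.7 at 0.04 mM, where the groups did not overlap. At 0.28, 0.20 and 0.12 mM it ranged from 71.2 to 78.2, 63.9 to 72.1 and 62.6 to 77.7 CPM and overlapped full medium. It fell by 0.30 on the log2 scale at 0.04 mM with the block (SE 0.0824, adjusted p = 0.0137, lower in 3 of 3 pairs) and not without it (adjusted p = 0.315). The call was lost without replicate 1 of 0.04 mM (adjusted p = 0.0887) or replicate 2 or 3 of full medium (0.0562 and 0.0614). Its changes elsewhere were -0.19 at 0.12 mM, -0.18 at 0.20 mM and -0.06 at 0.28 mM (adjusted p = 0.123 to 0.75). The paralog GNPDA2 (chromosome 4) ranged from 15.5 to 24.4 CPM, had changes of 0.03 to 0.27 and passed nowhere, and 8.94% of its exonic bases overlap genes on the opposite strand. NAGK (chromosome 2) ranged from 21.9 to 28.0 CPM in replicate 1 and from 13.8 to 19.4 in replicates 2 and 3. Its largest change was -0.31 at 0.20 mM (SE 0.121, adjusted p = 0.0782, lower in 3 of 3 pairs).

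Counted over the 10 genes, 1 rose at 0.04 mM without the block, where 0.0434% of all genes passed, and 0 passed at the other concentrations (1 each by unadjusted p under 0.05; DESeq2 called 1 at 0.12, 1 at 0.20 and 0 at 0.28 mM). There 0% of all genes passed at 0.12 and 0.28 mM and 0.0145% at 0.20 mM. With the block 3 of 10 passed at 0.04 mM beside 13.4% of all genes: 2 were higher (7.21% of all genes) and 1 lower (6.23%). The calls at the other concentrations were all higher: 2 at 0.12 mM beside 8.31% of all genes called and 4.41% called higher, 3 at 0.20 mM beside 14.8% and 7.67%, and 1 at 0.28 mM beside 2.08% and 1.23%. Groups did not overlap for 3 of the 10 at 0.04 mM (15.2% of all genes), 2 at 0.12 mM (12.2%), 2 at 0.20 mM (15.5%) and 1 at 0.28 mM (9.29%). Some of these shares lie above the background, but the genes are few and the counts include GFPT2, whose rise was known. The shares are therefore not read as a result about the 10 genes. The median change of the 10 was 0.14 at 0.04 mM, 0.12 at 0.12 mM, 0.18 at 0.20 mM and 0.10 at 0.28 mM, against 0.01, 0.01, 0.00 and 0.00 over all genes in that order. Scaling to the spike-ins shifted the median of all genes by -0.18 at 0.12 mM and -0.13 at 0.28 mM, and then 2 and 3 of the 10 had positive changes there instead of 7 and 7, whereas GFPT2 (1.15 and 0.92) and OGA (0.08 and 0.10) stayed positive. Relative to the median of all genes, 7 of the 10 lay above at both concentrations under either scaling. With the GC and length offset, 5 to 7 of the 10 were positive, in place of 7 to 8.

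**Figure D3:**
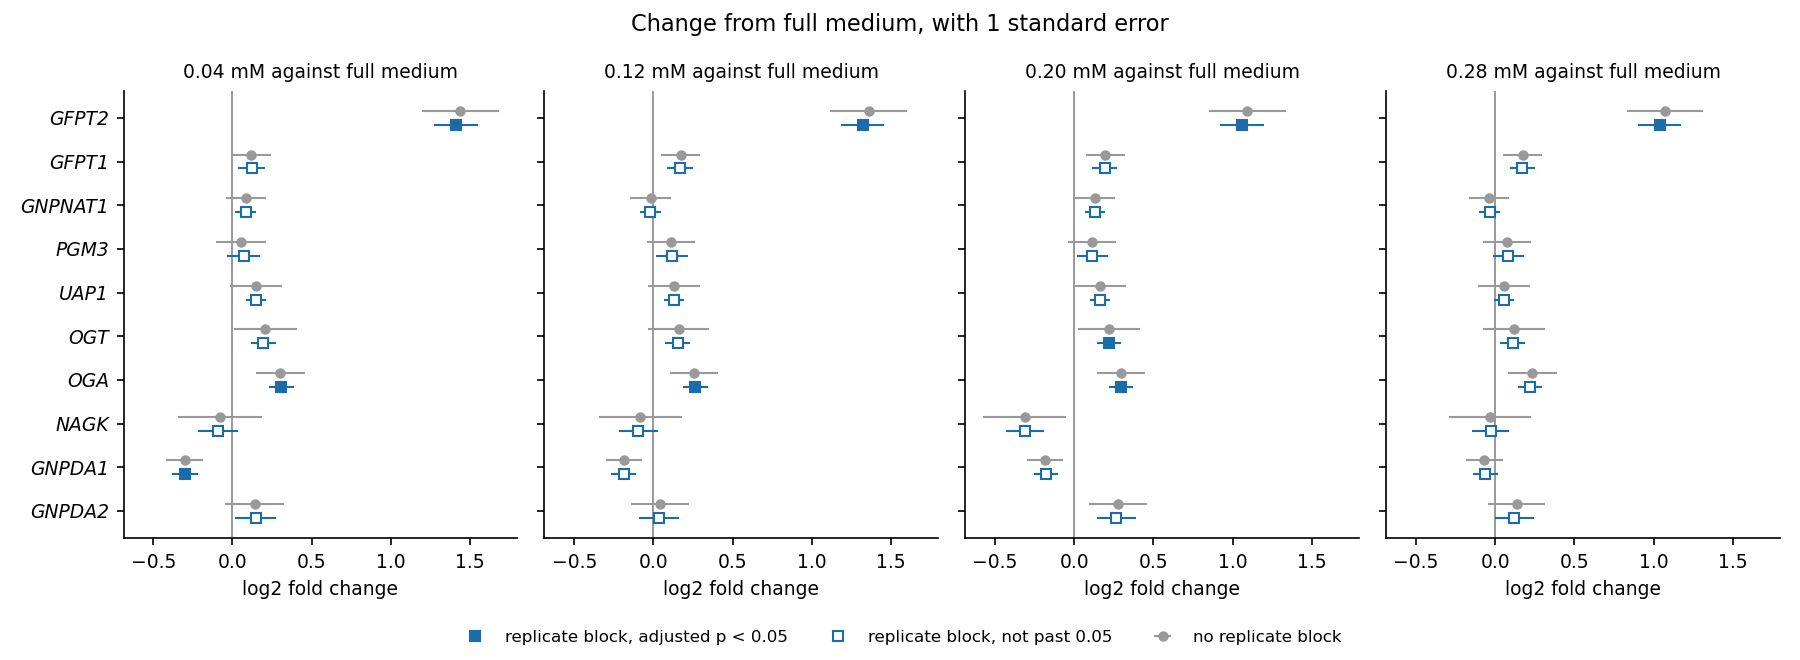
Log2 fold change against full medium (horizontal axis) of the 10 transcripts at each glutamine concentration, with bars of 1 standard error, from 3 libraries per group. Grey circles are the fit without the replicate block and blue squares the fit with it, and only the squares show calls, filled where adjusted p was under 0.05. GFPT2 lies between 1.04 and 1.44 in all 4 panels and the other 9 between -0.31 and 0.31.

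For most of these enzymes the replicate number accounted for more of the variation than glutamine did. Of the sum of squares of log2 CPM over 15 libraries, 77.4% lay between glutamine groups for GFPT2 and 48.0% for GNPDA1, the 2 genes in which this share exceeded that between replicate numbers (14.9% and 33.8%). In the other 8 of 10 the replicate number held 44.1% (GFPT1) to 85.9% (UAP1) and glutamine 6.31% (PGM3) to 30.7% (OGA). Over all genes the median shares were 24.0% between groups and 36.7% between numbers.

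**Figure D4:**
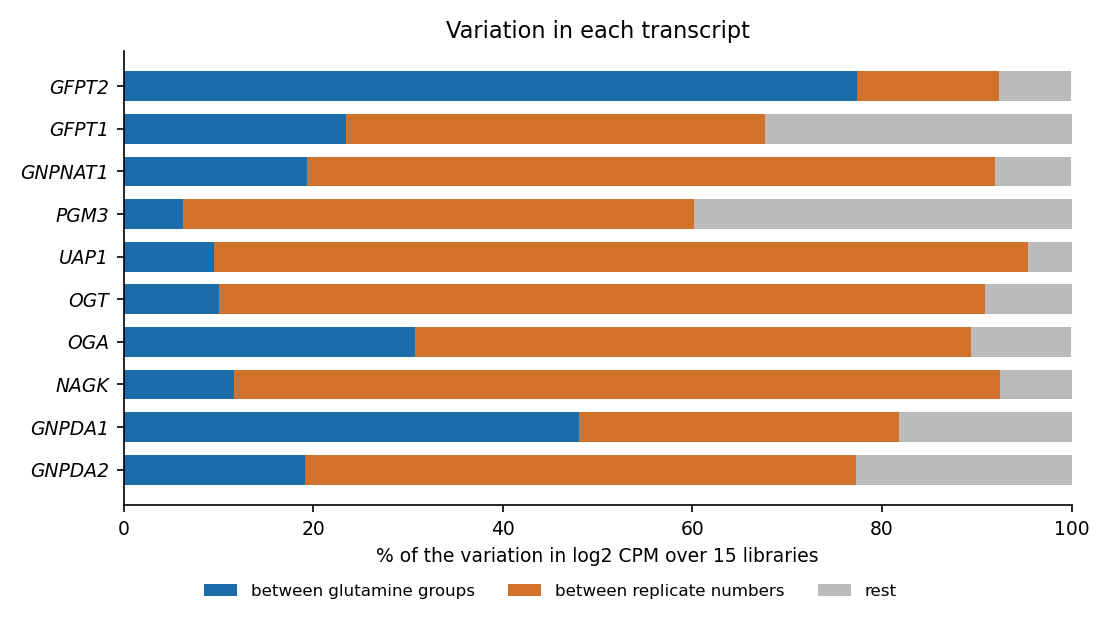
Share of the variation in log2 CPM over 15 libraries, in %, that lay between glutamine groups (blue), between replicate numbers (orange) and in the rest (grey), for each of the 10 transcripts. GFPT2 has 77.4% between groups, and UAP1, NAGK and OGT have 80.7 to 85.9% between replicate numbers.

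By level, UAP1 was highest and GNPDA2 and NAGK were lowest per kilobase of exon. The mean over 15 libraries was 67.2 CPM per kilobase for UAP1, 32.2 for GNPNAT1, 17.7 for GNPDA1, 13.6 for OGA and 10.5 for OGT. GFPT1 followed at 9.63, GFPT2 at 6.49, PGM3 at 6.18, GNPDA2 at 2.69 and NAGK at 2.21. With the length of the longest coding transcript in place of the union of exons, NAGK moved to 8.39, GFPT2 to 10 and GFPT1 to 9.81, so the order in the lower part depends on the isoforms present, which the table does not tell. In full medium GFPT2 was at 3.06 CPM per kilobase (SD 0.0781) and GFPT1 at 8.79 (SD 0.378), and at 0.04 mM at 8.43 (SD 2.11) and 9.49 (SD 1.43).

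Neighbouring branches were examined in 5 further gene lists, with 64 genes tested. Without the block 0 of the 64 passed at 0.04 mM (11 at an unadjusted p under 0.05, and 1 by DESeq2), so the following calls are all from the fit with the block and are for 0.04 mM unless another concentration is given. There 11 of the 64 passed, beside 13.4% of all genes (7.21% higher and 6.23% lower), so the count over the lists together was not far from the background. Of the 11 tested enzymes of amino sugars and sialic acid, 0 rose and 2 fell, with a median change of -0.33. HEXA, a lysosomal hexosaminidase subunit, had 19.9 CPM on average against 27.9 and fell by 0.48 (SE 0.119, adjusted p = 0.00652), and 16.3% of its exonic bases overlap other genes. HEXA passed at no other concentration.

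Of 25 tested genes of UDP-GlcNAc transport and use, 2 rose, beside 7.21% of all genes, and 0 fell (median 0.07). EXT1, a polymerase of heparan sulfate, rose from 134 to 161 CPM on average (0.26, SE 0.0707, adjusted p = 0.014) and also at 0.12 and 0.20 mM (0.28 and 0.26). MFNG, which extends O-fucose on Notch, was scarce, with 1.49, 2.92 and 1.89 CPM against 0.923, 0.539 and 0.258 (1.75, SE 0.505, 0.0186). Its full-medium values were too low for the filter on low counts, which it passed only through limited libraries. Its call, 1 of the 2, is therefore no support for a rise. DESeq2 with the block called 1 of the 25 at 0.04 mM and gave no adjusted p for 2.

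Of the 8 other glutamine amidotransferases, which take nitrogen from glutamine as the GFPT enzymes do, 0 rose and 2 fell (median 0.00). Over all genes 7.21% were called higher and 6.23% lower, which is the background for each list here. PFAS of purine synthesis fell by 0.30 (SE 0.0839, adjusted p = 0.0153) and CTPS1 of CTP synthesis by 0.23 (SE 0.0683, 0.022). For both the groups did not overlap, as for 15.2% of all genes. PFAS stood at 115, 87.4 and 95.1 CPM against 117, 117 and 133. Among 10 genes of glucose entry and fructose 6-phosphate, 1 rose and 2 fell (median -0.10). MPI, which links fructose 6-phosphate to mannose, fell from 34.6 to 22.1 CPM on average (by 0.63, SE 0.114, 3.34e-04) and also at 0.12 and 0.20 mM (by 0.52 and 0.59). PMM2, the next enzyme towards GDP-mannose, fell at all 4 concentrations, by 0.34 at 0.04 mM (SE 0.0756, 0.00252) and by 0.27 at 0.28 mM (adjusted p = 0.0411). For MPI and PMM2, 24.6% and 25.5% of exonic bases overlap other genes. The glucose carrier SLC2A3 rose by 0.75 (SE 0.206, 0.0134) with overlapping groups. Of 10 endoplasmic reticulum stress genes 2 rose and 0 fell (median 0.15). DNAJC3 rose by 0.26 (SE 0.0649, 0.00677), and EDEM1 by 0.25 (SE 0.0745, 0.0206) with overlapping groups.

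The transcripts whose pattern was most like that of GFPT2 were sought among 10306 genes, by Pearson correlation of log2 CPM over the 15 libraries with replicate means removed, as a description. They were ANTXR2 (r = 0.986), an anthrax toxin receptor, CHRNA9 (0.976), a nicotinic receptor subunit, SMOC1 (0.975), a matricellular protein, and PLAU (0.971), the urokinase protease. ITGA2 (0.962), the collagen-binding integrin subunit, COL6A3 (0.961), a collagen VI chain, ULK2 (0.961), an autophagy kinase, and NT5E (0.959), the ectonucleotidase CD73, followed. Without removing replicate means r was still 0.965 for SMOC1 and 0.947 for ULK2 but 0.387 for PLAU, of whose exonic bases 31.1% overlap another gene. SMOC1 stood at 67.5 CPM on average at 0.04 mM against 35.2 in full medium, and ANTXR2 at 68.9 against 37.2. Of the other hexosamine enzymes OGA came nearest (r = 0.786, rank 502) and GFPT1 had r = 0.319 (rank 3170), while GNPDA1 ran opposite (-0.73). All 15 values share the same 5 groups, so these genes are alike over 5 conditions only.

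Markers of other cell types were listed beside this. Of 6 fibroblast markers LUM was at 0 in all libraries, COL1A2 and COL3A1 reached at most 0.36 CPM and PDGFRB 1.33, while DCN ranged from 13.8 to 45.7 and COL1A1 from 11.8 to 43.7. The sum of the 6 was 33.3 to 45.7 CPM in full medium and 37.5 to 54.3 at 0.28 mM. It was 41.0 to 56.2 CPM at 0.20 mM, 47.7 to 55.5 at 0.12 mM and 50.4 to 61.0 at 0.04 mM. At 0.28 and 0.20 mM the sum overlapped full medium, where GFPT2 did not. At 0.12 and 0.04 mM the sum and GFPT2 both lay wholly above full medium. Most of the sum came from DCN and COL1A1. Its part in the GFPT2 result was not tested. The 5 immune markers summed to 1.15 to 2.86 CPM in all libraries, with CD14 at 1.15 to 2.54 CPM, CD3E at 0 and the other 3 at or under 0.54.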

How the data were processed

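The authors deposited raw whole-number counts for 62754 Ensembl identifiers, plus 92 ERCC spike-ins, in 15 columns, each named for its sample. Libraries were prepared from ribosome-depleted total RNA, per the labels' protocols. GRCh38.p14 is named in the submitters' processing notes. For the aligner, the counter and its strand rule, nothing is given in the sources used here.

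Symbols were found for 62700 genes. Coordinates and promoters are those of RefSeq on GRCh38.p14, and lengths, coding sequences and overlaps those of GENCODE 29, which may differ from the gene set used for counting. The edgeR 4.0.16 filter (filterByExpr, minimum count 10, minimum total 15) kept 13828 genes with 99.72 to 99.79% of each library's counts. CPM use TMM library sizes, and log2 CPM a prior count of 2. The main test was edgeR's quasi-likelihood test across the 15 libraries with a coefficient for each group, adjusted by Benjamini-Hochberg over the genes kept (R 4.3.3). The companion fit added the replicate number as a block, because the numbers pair the libraries: with group means removed, all 30 pairs of libraries sharing a number correlated above 0.1 (r 0.184 to 0.489), and 0 of 60 pairs of different numbers did (r -0.406 to 0.0549). The ratio tests were exact permutation tests. Code was tested on simulated data.

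The 10 genes, the lists and the comparisons were chosen with earlier results of these data known. Named genes are the 10 enzymes, CDKN2A, up to 4 genes per list with the smallest adjusted p under 0.05 at 0.04 mM with the block, the 8 genes with a mean of at least 5 CPM most like GFPT2, and the listed markers. A gene that this rule names is not reported here. Alternatives were DESeq2 1.42.0, its size factors, spike-in scaling, other filters, a fit of just the groups compared, leaving out each library, leaving out the 2 libraries over 1% mitochondrial rRNA, and an offset for GC content and length. Replicates 1 and 2 only, and coding transcript length, were added after the data were seen.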

Additional observations from a re-analysis of the deposited data

How the results depend on the processing

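No change that passed the test turned its sign under any alternative run. Changes that did not pass did: with spike-in scaling and the block, GFPT1 (-0.02), UAP1 (-0.06) and OGT (-0.03) were negative at 0.12 mM, where 2 of the 10 genes stayed positive in place of 7. Without the block, GFPT2 at 0.04 mM kept its direction and lost its call with spike-in scaling (1.46), a stricter 5 CPM filter (1.44), a fit of just the 2 groups (1.44) and without the 2 libraries rich in mitochondrial rRNA (1.32), which left 0 of 10 genes called in each. With each library left out its change was 1.32 to 1.65, and 0 to 1 genes were called. At 0.12 mM GFPT2 passed with the replicate block (1.32), in DESeq2 (1.37) and with no filter beyond 1 count (1.34), and with each library left out it was 1.22 to 1.57, with 0 to 1 genes called. At 0.20 mM it passed with the block (1.06), in DESeq2 (1.10) and with no filter (1.09), and at 0.28 mM with the block (1.04) and with no filter (1.08). At 0.28 mM the run with no filter (adjusted p = 3.06e-06) differed from the main fit in its SE (0.171 against 0.241), hardly in the change. DESeq2 without the block did not call GFPT2 there (adjusted p = 0.0923). The block raised the genes called from 1 to 3 at 0.04 mM, 0 to 2 at 0.12 mM, 0 to 3 at 0.20 mM and 0 to 1 at 0.28 mM, and DESeq2 or no filter gave 1 where GFPT2 passed.

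Set against the blocked fit, GFPT2 lost its call without the replicate block at 0.12 mM (1.36), 0.20 mM (1.09) and 0.28 mM (1.07), and at 0.28 mM with replicates 1 and 2 only (0.84, adjusted p = 0.0623), a choice made after the data were seen. Spike-in scaling left 1 gene called at 0.04, 0.12 and 0.20 mM, the GC and length offset 1 at 0.12 and 0.20 mM, no filter or the compared groups alone 1 at 0.12 mM, and replicates 1 and 2 only 1 at 0.04 and 0.12 mM and 0 at 0.28 mM. With each library left out, 1 to 3, 1 to 2 and 1 to 4 genes were called at 0.04, 0.12 and 0.20 mM. With spike-in scaling OGA lost its call at 0.04 mM (0.30, adjusted p = 0.197), 0.12 mM (0.08, 0.734) and 0.20 mM (0.25, 0.299), and GNPDA1 lost its call at 0.04 mM (-0.30, 0.201). With the GC and length offset OGA lost its call at 0.12 mM (adjusted p = 0.0954) and 0.20 mM (0.0903). The causes were not tested. The lowest count in a library was 56 for NAGK, 59 for GNPDA2 and 114 for GFPT2.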
